A study of Mus musculus with 4 samples.

Results

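The proteasome subunit genes were compared between Nol3-/- MPN mice and Nol3+/+ mice in sorted Thy1+ LSK cells of the bone marrow. The members were all genes named Psma, Psmb, Psmc or Psmd with a number that had an array row of their own, which gave 38 of the 22180 genes with such a row. RefSeq lists 39 genes of these names, and the rows of the remaining one, Psma4, are shared with another gene and were not used. Of the 38, 37 passed the filter on dim rows and were tested; Psma5 did not, at a mean of 4.37 log2 units against a limit of 4.835 (the 25th percentile of all gene rows). The cells were primary, uncultured and sorted as lineage-negative, Sca-1 and Kit positive and Thy1 positive, a bone marrow fraction enriched for haematopoietic stem cells. Each group held 2 arrays. One came from Nol3+/+ mice and the other from mice with both copies of Nol3 lost and the label MPN, taken here as myeloproliferative neoplasm. All mice were on a C57BL/6 background, aged 11 to 18 months and untreated, and the sources used here do not say whether an array held 1 animal or a pool, or which animals of the Nol3+/+ group, if any, were diseased. Errors and p-values thus cover only the spread among these 4 arrays, which may be technical.

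The proteasome is the protease that degrades proteins tagged with ubiquitin. Its core particle is a barrel of outer rings of alpha subunits (Psma genes), which gate the entrance, and inner rings of beta subunits (Psmb genes), of which Psmb5, Psmb6 and Psmb7 carry the protease sites. Regulatory particles on the ends of the barrel hold a ring of ATPases (Psmc genes) that unfolds the substrate and a set of non-ATPase subunits (most Psmd genes) that bind ubiquitin and remove it. In blood cells and after interferon, Psmb8, Psmb9 and Psmb10 can replace the constitutive catalytic subunits and form the immunoproteasome, which is known for making peptides for MHC class I molecules. Protein turnover in haematopoietic stem cells is kept under tight control, and the proteasome is part of that control.

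The arrays had medians between 5.35 and 5.39 log2 units. Nol3+/+ replicate 1 stood apart: across tested genes it correlated with the other arrays at r = 0.899 to 0.911, whereas the other 3 correlated with each other at r = 0.929 to 0.949 (a description across genes). Nol3 itself did not check the labels, at 5.31 and 5.52 in the Nol3+/+ arrays against 5.38 and 5.50. That row lay near the level of Psmb11, which cannot be separated from background (below), so it does not show whether Nol3 RNA differed. Xist, the RNA of the inactive X chromosome, was at 5.43 and 5.28 in the Nol3+/+ arrays against 10.88 and 10.69, so genotype, the disease label and this sex-linked signal divide the arrays in the same way and cannot be told apart. Among genes of the sort, Kit was at 7.39 to 8.38 over the 4 arrays, Thy1 lay near the dim limit at 4.64 to 5.24, and Ly6a had no row of its own.

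Most proteasome subunit genes read higher in the Nol3-/- MPN arrays, by small amounts, and none passed the threshold over all genes. Of the 37 tested members, 29 had a log2 difference above 0 (78.4%), against 51.7% of all 16635 tested genes. With 1 array left out the count was 25 to 28, and the sign of 15 members turned in at least 1 alternative setting, all of them outside the 9 named next. At an unadjusted limma p under 0.05, 9 members were higher (24.3%) and 0 lower, against 3.73% and 2.07% of all tested genes. The 9 were Psmc5, Psmb6, Psma7, Psma2, Psmb2, Psmb1, Psmd7, Psmb9 and Psmc6, which include alpha, beta, ATPase and lid subunits. After Benjamini-Hochberg adjustment over all genes 0 members passed (smallest limma adjusted p = 0.841), while 4 of 16635 genes did (0.024%). Xist was among these 4 (limma adjusted p = 0.0234), and with X and Y genes left out 0 genes passed. The median log2 difference of the members was 0.18 against 0.01 for all tested genes. Both Nol3-/- MPN arrays lay above both Nol3+/+ arrays for 17 members (45.9%) and below for 4, against 19.7% and 15.9% of all tested genes, together 21 members against 35.5%. At least a 2-fold higher signal was seen for 3 members, Psmc5, Psma2 and Psmd7, and for 1.02% of all tested genes. The count of 9 depended on the arrays used. It was 6 when Nol3+/+ replicate 1 was dropped (all genes 2.77%) and 7, with Psmd5 lower, when Nol3+/+ replicate 2 was (6.25%). It was 3 when Nol3-/- MPN replicate 1 was dropped (2.51%) and 4, with Psmd5 lower, when Nol3-/- MPN replicate 2 was (3.14%). It was 6 in a fit blocked on replicate number (3.79%) and 6 after quantile normalization (3.23%). All 9 kept a difference above 0 in each of these fits, and Psmc5 and Psmb6 reached an unadjusted p under 0.05 in all of them.

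**Figure D1:**
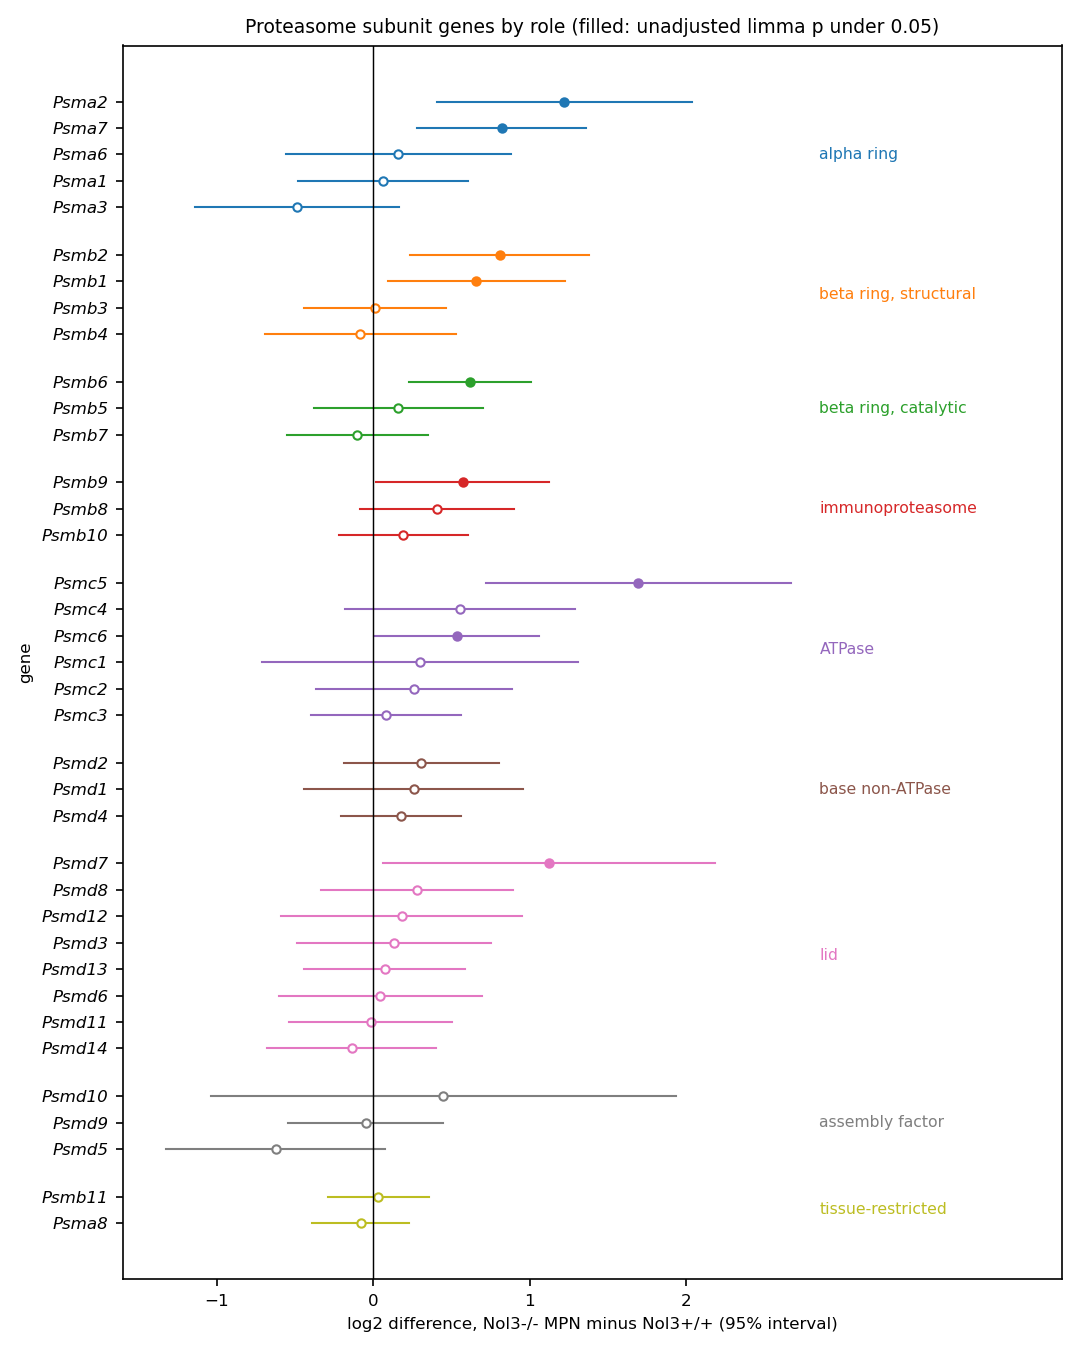
Log2 differences (Nol3-/- MPN minus Nol3+/+, x axis) of the 37 tested subunit genes, grouped by role, with limma 95% intervals as lines; filled points have an unadjusted limma p under 0.05. The 9 filled points all lie above 0, from 0.53 for Psmc6 to 1.69 for Psmc5, and the interval of every other member crosses 0.

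The same difference was also laid out by array, with every gene set against its own mean over the 4 arrays, which is no separate evidence. The median deviation of the 37 members was -0.11 and -0.07 log2 units for Nol3+/+ against 0.04 and 0.15 for Nol3-/- MPN. For all tested genes the same medians were 0.00, -0.02, -0.02 and 0.03. The Nol3-/- MPN arrays thus both lay above the Nol3+/+ arrays for the members, with replicate 1 closer to them. In the same array order the medians were -0.14, -0.13, 0.11 and 0.14 for core genes and -0.08, -0.08, 0.01 and 0.16 for regulatory genes. For the 8 lid genes alone they were -0.09, 0.01, -0.08 and 0.14, so there Nol3-/- MPN replicate 1 lay below Nol3+/+ replicate 2. The 12 tested constitutive core genes had a median log2 difference of 0.16, the 20 regulatory genes (assembly factors included) 0.22 and the 3 immunoproteasome genes 0.41. The core median was 0.28 without Nol3-/- MPN replicate 1 and 0.076 after quantile normalization. The regulatory median was 0.083 without Nol3-/- MPN replicate 2 and 0.14 after quantile normalization, and the immunoproteasome median 0.27 without Nol3-/- MPN replicate 2. In a bulk sample a lower share of cells of one type and less RNA per cell cannot be told apart, and array signals are relative to the other genes on the array.

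**Figure D2:**
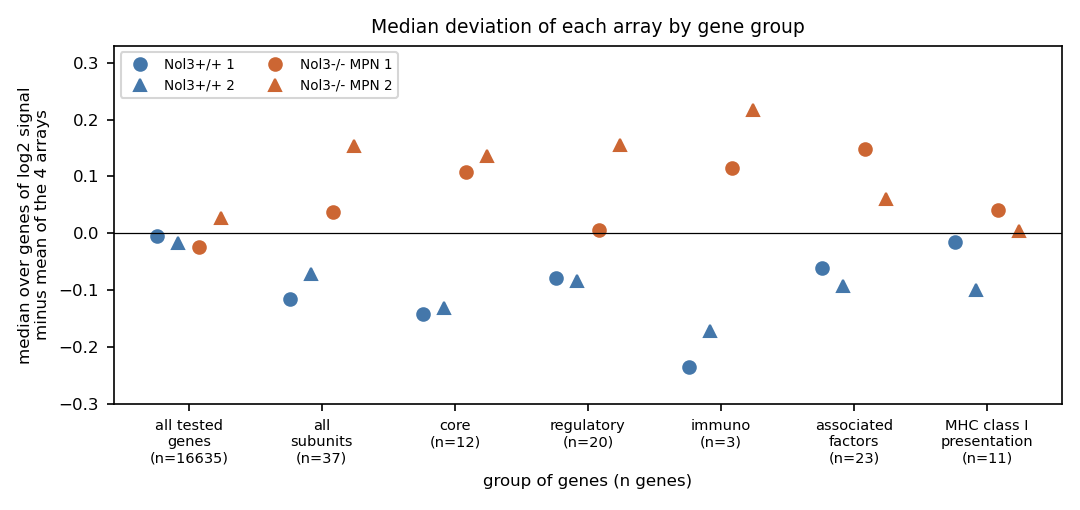
Median over genes of the log2 signal minus that gene's mean over the 4 arrays (y axis), for each array and 7 groups of genes (x axis, number of genes in brackets); colours mark the genotype groups and symbols the replicate number. For the subunit genes both Nol3-/- MPN arrays lie above 0 and both Nol3+/+ arrays below it, whereas for all tested genes the 4 arrays lie between -0.02 and 0.03.

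Among the alpha ring genes, 4 of 5 tested members were higher (51.7% of all genes) and 2 were so at an unadjusted p under 0.05 (3.73%). Psma2, an alpha ring subunit, read 6.52 and 7.28 in Nol3+/+ against 8.20 and 8.04 in Nol3-/- MPN. The groups were apart, with Nol3+/+ replicate 1 the lowest, and Nol3-/- MPN was higher by 1.22 on the log2 scale (SE 0.32, limma adjusted p = 0.841). Without Nol3+/+ replicate 1 it was 0.84. Psma7, the alpha subunit that the testis form Psma8 replaces, read 9.08 and 9.34 against 10.17 and 9.88, higher by 0.82 on the log2 scale (SE 0.21, limma adjusted p = 0.841). Not every ring gene read higher. Psma3 lay lower, with 9.62 and 9.56 in Nol3+/+ against 8.82 and 9.39 in Nol3-/- MPN, a log2 difference of -0.49 (limma adjusted p = 0.841). Nol3-/- MPN replicate 1 was the lowest array, and without it the difference was -0.20. Psma1 and Psma6 differed by 0.06 and 0.16, with overlapping groups, and the sign turned without Nol3+/+ replicate 1 for Psma1 (-0.006) and without Nol3-/- MPN replicate 2 for Psma6 (-0.14). The dim Psma5 row read 4.49, 4.27, 4.51 and 4.21 in the order of Nol3+/+ and then Nol3-/- MPN, with a difference of -0.02, and its second row was lower still on each array.

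The structural genes of the beta ring divided in the same way, with Psmb2 and Psmb1 higher and Psmb3 and Psmb4 close to 0. Psmb2 read 7.04 and 6.76 in Nol3+/+ against 7.76 and 7.66 in Nol3-/- MPN, higher by 0.81 on the log2 scale (SE 0.22, limma adjusted p = 0.841). Psmb1 read 6.74 and 6.98 against 7.62 and 7.42, higher by 0.66 (SE 0.22, limma adjusted p = 0.841). In both genes the gap between the groups was wider than the gap between replicates. Psmb3 differed by 0.01 and Psmb4 by -0.08, with intervals from -0.44 to 0.47 and from -0.69 to 0.53.

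**Figure D3:**
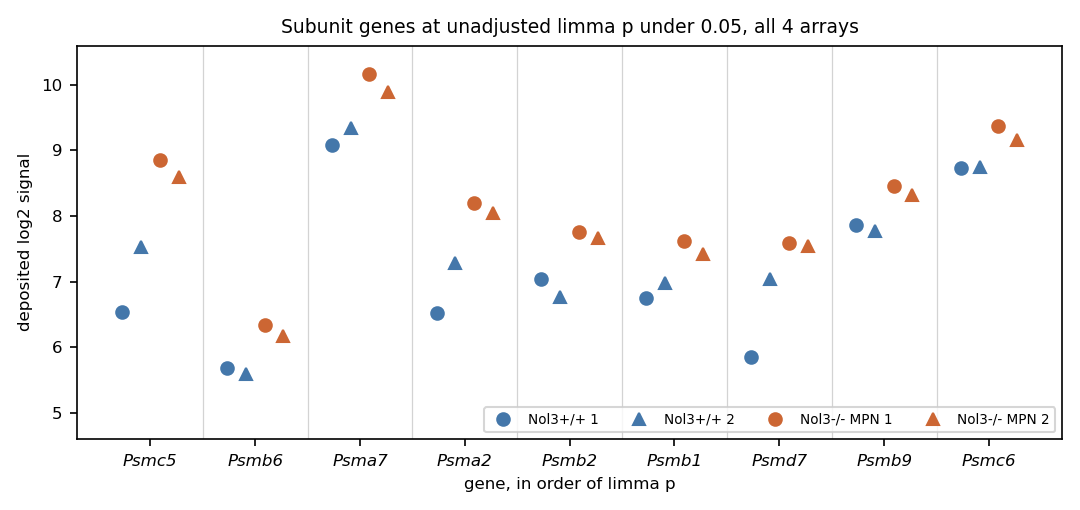
Deposited log2 signal (y axis) on the 4 arrays for the 9 subunit genes with an unadjusted limma p under 0.05, in order of p (x axis). In each gene both Nol3-/- MPN arrays lie above both Nol3+/+ arrays, and in Psmc5, Psma2 and Psmd7 the Nol3+/+ replicates themselves differ by 0.99, 0.76 and 1.19 log2 units.

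The catalytic genes differed by site. At the beta1 site, which cuts after acidic residues in its constitutive form, both genes were higher in Nol3-/- MPN. Psmb6, the constitutive subunit, read 5.68 and 5.59 in Nol3+/+ against 6.34 and 6.17 in Nol3-/- MPN, higher by 0.62 on the log2 scale (SE 0.15, limma adjusted p = 0.841). Psmb9, its immunoproteasome counterpart, read 7.86 and 7.77 against 8.45 and 8.32, higher by 0.57 (SE 0.22, limma adjusted p = 0.841). In both genes the replicates lay closer to each other than the groups did. At the beta5 site, with chymotrypsin-like activity, the constitutive Psmb5 read 7.10 and 7.25 against 7.40 and 7.27, a difference of 0.16 with an interval from -0.38 to 0.70. Dropping replicate 1 of Nol3+/+ gave 0.083, and dropping replicate 1 of Nol3-/- MPN gave 0.096. Its counterpart Psmb8 read 6.24 and 6.30 against 6.54 and 6.82, higher by 0.41 (SE 0.19, limma adjusted p = 0.841). The groups did not overlap for either gene, though they nearly touched for Psmb5, and Psmb8 differed by 0.27 without Nol3-/- MPN replicate 2. At the beta2 site, with trypsin-like activity, Psmb7 read 10.19 and 9.99 against 10.08 and 9.90, with overlapping groups and a difference of -0.10. Psmb10 read 5.90 and 6.09 against 6.20 and 6.16, a difference of 0.19 with an interval from -0.22 to 0.60, and of 0.10 without Nol3+/+ replicate 1.

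**Figure D4:**
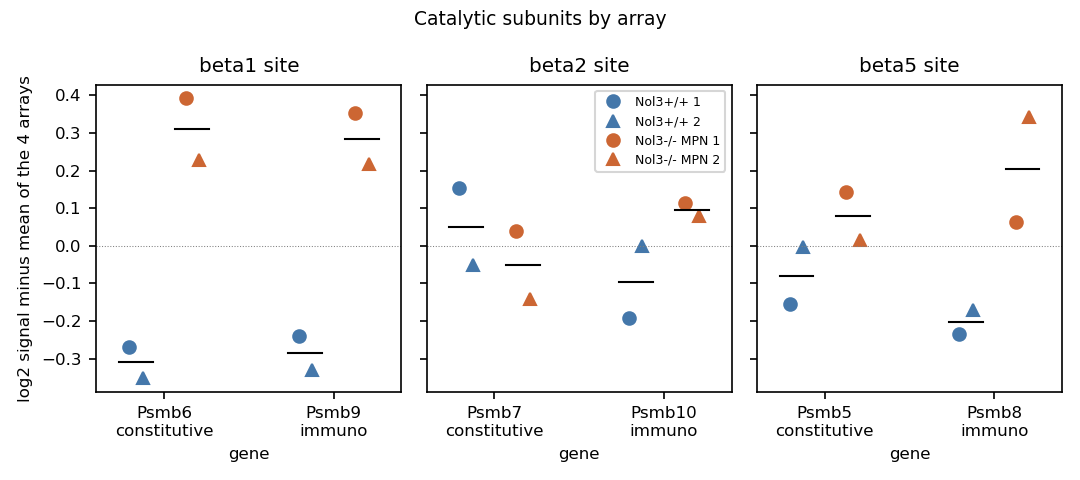
Log2 signal minus the gene's mean over the 4 arrays (y axis) for the constitutive and immunoproteasome subunits of each protease site (panels); black bars are group means and symbols the 4 arrays. At the beta1 site Psmb6 and Psmb9 are apart by a like amount, whereas at the beta2 site the groups overlap for Psmb7.

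The exchange of immunoproteasome for constitutive subunits was described as the difference of the paired log2 signals on each array. For Psmb9 minus Psmb6 it was 2.18 and 2.17 in Nol3+/+ against 2.12 and 2.14 in Nol3-/- MPN, a change of -0.05. Psmb8 minus Psmb5 was -0.86 and -0.95 against -0.86 and -0.45, a change of 0.25, with Nol3-/- MPN replicate 1 level with Nol3+/+ replicate 1. Psmb10 minus Psmb7 was -4.30 and -3.90 against -3.88 and -3.74, a change of 0.29. Each of the 3 comparisons gave a two-sided exact permutation p = 0.333, the smallest that 2 arrays against 2 allow, so none could pass the threshold at any adjustment over the 3. The mean change over the pairs was 0.16. It ran from 0.07 to 0.26 with 1 array left out at a time. The levels of different rows cannot be compared, so these values show the change of a pair and not how much of either subunit was present.

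Psmb9, Tap1, Psmb8 and Tap2 are neighbours on chromosome 17 in the MHC region, in that order in RefSeq GRCm38.p6. Tap1 and Tap2, which form the peptide transporter of the MHC class I pathway, differed by -0.08 and 0.13 with overlapping groups, next to 0.57 and 0.41 for Psmb9 and Psmb8. Tap2 read 4.88 and 4.92 in Nol3+/+ against 4.88 and 5.19 in Nol3-/- MPN. That is close to the dim limit of 4.835, so its row may be unable to show a difference. Sequences of 300 bases around gene starts (250 before and 50 after, RefSeq, GRCm38.p6) were at hand for 31 member genes in 33 windows, and were searched on both strands for the letters of 7 elements. The core of the antioxidant response element, TGACNNNGC, bound by the NFE2L1 and NFE2L2 factors that switch on subunit genes, was in 5 windows (15.2%) against 12.4% of all 32851 windows. The genes were Psmb5, Psmb6, Psmc6, Psmd9 and Psmd12. Its longer form TGACTCAGC was in 0 member windows and 0.454% of all. The core of the interferon-stimulated response element (GAAA, any 2 bases and GAAA again) was in 3 (9.09%, genes Psmb3, Psmd4 and Psmd9) against 3.44%. The interferon gamma-activated site core, TTCNNNGAA, was in 2 (6.06%, genes Psmb8 and Psmd2) against 8.3%. The ETS site core CCGGAAG was in 11 windows of 10 genes (33.3%) against 8.86%, the GC box GGGCGG in 18 (54.5%) against 35.7%, and CCAAT in 13 (39.4%) against 37.4%. Matches of different elements may overlap. Of the 9 members at an unadjusted p under 0.05, 6 had a window. All 6 of these held the GC box, 3 held CCAAT, 2 the antioxidant response element core and 1 the ETS core, and 0 held the longer antioxidant, interferon-stimulated or gamma-activated element. These matches describe letters in the windows and were not compared with any binding data. The stretches before the starts of Psmb5, Psmb8, Psmb9 and the ATPase genes Psmc5 and Psmc6 are printed 5′ to 3′. These stretches are examples chosen after values were seen. Capitals mark matches on either strand to the antioxidant, interferon-stimulated or gamma-activated core. They lie at chr14:54617996-54618245 (minus strand), chr17:34197945-34198194 (plus), chr17:34187331-34187580 (minus), chr11:106255935-106256184 (plus) and chr14:45329574-45329822 (plus), each ending at the base before the earliest annotated start.
Psmb5: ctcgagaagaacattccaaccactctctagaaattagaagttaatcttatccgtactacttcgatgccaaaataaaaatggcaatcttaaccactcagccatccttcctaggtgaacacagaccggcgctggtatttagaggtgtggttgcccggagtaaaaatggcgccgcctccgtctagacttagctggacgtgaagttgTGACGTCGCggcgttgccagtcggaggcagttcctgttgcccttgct
Psmb8: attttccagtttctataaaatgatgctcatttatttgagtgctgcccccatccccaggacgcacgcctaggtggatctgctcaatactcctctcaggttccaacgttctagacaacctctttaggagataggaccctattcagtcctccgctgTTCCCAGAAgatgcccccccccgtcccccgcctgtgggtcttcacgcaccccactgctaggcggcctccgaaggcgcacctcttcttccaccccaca
Psmb9: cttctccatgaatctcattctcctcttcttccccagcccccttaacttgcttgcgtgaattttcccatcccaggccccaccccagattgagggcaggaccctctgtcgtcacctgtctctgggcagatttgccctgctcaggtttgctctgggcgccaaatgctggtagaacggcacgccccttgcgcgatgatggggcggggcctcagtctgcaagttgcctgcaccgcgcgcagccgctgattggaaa
Psmc5: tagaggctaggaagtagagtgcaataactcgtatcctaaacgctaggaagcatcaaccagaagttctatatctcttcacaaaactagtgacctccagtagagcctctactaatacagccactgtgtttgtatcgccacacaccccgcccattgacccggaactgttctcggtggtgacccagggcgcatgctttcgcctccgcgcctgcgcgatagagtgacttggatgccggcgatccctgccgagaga
Psmc6: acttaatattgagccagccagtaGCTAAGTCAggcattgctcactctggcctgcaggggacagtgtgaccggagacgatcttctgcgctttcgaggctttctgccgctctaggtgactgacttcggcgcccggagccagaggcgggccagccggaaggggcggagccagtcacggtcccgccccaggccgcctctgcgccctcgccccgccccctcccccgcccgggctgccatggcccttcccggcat
Psmb5 and Psmc6 each held 1 antioxidant response element core and Psmb8 held 1 gamma-activated core. Psmb9 and Psmc5 held none of the 3 in these stretches.

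All 6 ATPase genes lay above 0, with a median log2 difference of 0.42, and 4 of them had groups that did not overlap (19.7% of all genes higher in this way). That all 6 were above 0 rested on Nol3-/- MPN replicate 2, without which Psmc1 differed by -0.17 and Psmc2 by -0.08. Psmc5, which encodes the ATPase Rpt6, had the largest difference of all members. It read 6.54 and 7.53 in Nol3+/+ against 8.86 and 8.60 in Nol3-/- MPN, higher by 1.69 on the log2 scale, or 3.23-fold (SE 0.38, interval 0.72 to 2.67, limma adjusted p = 0.841). The gap between the Nol3+/+ replicates was 0.99, and without Nol3+/+ replicate 1 the difference was 1.20. Psmc6 (Rpt4) read 8.73 and 8.74 against 9.38 and 9.16, higher by 0.53 (SE 0.21, limma adjusted p = 0.841). Here the Nol3+/+ arrays were 0.01 apart and both Nol3-/- MPN arrays were higher. Psmc4 (Rpt3) read 5.83 and 6.55 against 6.83 and 6.65, a difference of 0.55 (limma adjusted p = 0.841) that was 0.19 without Nol3+/+ replicate 1. Psmc1, Psmc2 and Psmc3 differed by 0.30, 0.26 and 0.08. The Nol3-/- MPN replicates of Psmc1 and Psmc2 lay 0.94 and 0.68 apart, with replicate 2 higher in both, and the 2 rows of Psmc2 differed by 0.26 and 0.03.

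The non-ATPase subunits of the base, which hold ubiquitin receptors, were all above 0 and all small. Psmd2 (Rpn1) read 5.81 and 5.64 in Nol3+/+ against 5.82 and 6.24 in Nol3-/- MPN, higher by 0.31 on the log2 scale with an interval from -0.19 to 0.80. Without Nol3-/- MPN replicate 2 the difference was 0.10. Psmd4 (Rpn10), a ubiquitin receptor, read 5.90 and 5.80 against 5.97 and 6.08, a difference of 0.18 with an interval from -0.21 to 0.56. Psmd1 (Rpn2) differed by 0.26 with overlapping groups. The lid, which holds the deubiquitinase Psmd14 (Rpn11), had 6 of 8 members above 0 (51.7% of all genes) and a median of 0.10. Within it Psmd7 (Rpn8), the partner of Psmd14, read 5.85 and 7.04 against 7.59 and 7.55, higher by 1.12 (SE 0.42, limma adjusted p = 0.841). Nol3+/+ replicate 1 lay 1.19 below replicate 2, and the difference was 0.53 without it and 1.72 without Nol3+/+ replicate 2. Psmd14 itself read 8.87 and 9.13 against 8.85 and 8.87, a difference of -0.14 with an interval from -0.68 to 0.40. The groups nearly touched. The other lid genes, Psmd3, Psmd6, Psmd8, Psmd11, Psmd12 and Psmd13, differed by -0.02 to 0.28, and the sign of each but Psmd8 turned with 1 array left out.

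Psmd5, Psmd9 and Psmd10 help to assemble the base of the regulatory particle and are not part of the finished complex. Psmd5 (S5b) read 6.09 and 5.69 in Nol3+/+ against 4.92 and 5.61 in Nol3-/- MPN, the lowest log2 difference of all members at -0.62 (limma adjusted p = 0.841). It was -0.28 without Nol3-/- MPN replicate 1, whose value of 4.92 lay near the dim limit of 4.835. Psmd9 (p27) differed by -0.05 with overlapping groups. Psmd10 (gankyrin), the X-linked member, read 7.42 and 5.92 against 7.60 and 6.64. Its replicates lay 1.5 and 0.96 apart, more than the difference of 0.45 between the groups, and the sign turned to -0.30 without Nol3+/+ replicate 2. Psma8 and Psmb11, forms of the core known from testis and thymic epithelium, read 5.0, 5.01, 4.87 and 4.98, and 5.47, 5.36, 5.44 and 5.46, with differences of -0.08 and 0.03. Their means lay at percentiles 58.5 and 72.7 of 1088 olfactory receptor genes, which these cells are not known to express, so the rows cannot be separated from background.

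The gaps between replicates were close to those of all tested genes. The median gap between replicates was 0.22 log2 units in Nol3+/+ and 0.18 in Nol3-/- MPN, against 0.20 and 0.18 over all tested genes. Of the 37 members, 8 had Nol3+/+ replicates over 0.5 apart and 6 had Nol3-/- MPN replicates over 0.5 apart. Nol3+/+ replicate 1 was the lowest of the 4 arrays for 16 members and replicate 2 for 12. Nol3-/- MPN replicate 1 was the lowest for 6 and replicate 2 for 3. Among the 9 members at an unadjusted p under 0.05, replicate 1 of Nol3+/+ was the lowest in 6. The shares of all tested genes were not taken for these counts. The tested members lie on 15 chromosomes.

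Genes whose products bind, assemble or control the proteasome showed a like direction. Of 27 listed genes 23 had a row and were tested, of which 17 lay higher and 6 lower. The higher share was 73.9%, against 51.7% of all tested genes. Their median log2 difference was 0.19, and 4 were higher at an unadjusted p under 0.05 (17.4%, background 3.73%) with 0 passing the adjusted threshold. Ngly1, the glycanase that matures the factor Nfe2l1, read 6.19 and 6.66 in Nol3+/+ against 7.83 and 7.42 in Nol3-/- MPN, higher by 1.20 (SE 0.27, limma adjusted p = 0.841). Usp14, a deubiquitinase of the proteasome, read 6.98 and 7.34 against 7.82 and 7.80, a difference of 0.65 (limma adjusted p = 0.841). Sem1, a small lid subunit, differed by 0.83 and Psmf1, a proteasome inhibitor, by 0.47, also with groups that did not overlap. Psmf1 read 5.47 and 5.06 against 5.75 and 5.71, with its Nol3+/+ arrays near the level of Psmb11. Nfe2l1 and Nfe2l2, the factors that raise subunit transcription, differed by -0.12 and 0.03 with overlapping groups. The interferon-inducible activators Psme1 and Psme2 differed by 0.42 and -0.17. The assembly chaperones were mixed: Pomp read 9.09 and 7.86 against 9.99 and 8.82 with overlapping groups, Psmg4 differed by 0.34 and Psmg3 by -0.41. Psmg4 (4.83 to 5.35) and the Nol3-/- MPN arrays of Psmg3 (5.41 and 5.36) also lay near or under the level of Psmb11. The MHC class I presentation list, which shares its purpose with the immunoproteasome, had 8 of 11 tested members higher and a median of 0.04. That share, 72.7%, stands against 51.7% of all tested genes. In this list 2 genes were higher with no overlap (18.2%, against 19.7% of all tested genes) and 0 lower. Its members with the smallest p were B2m at 0.22 (limma adjusted p = 0.841), Canx at 0.20 and Tap2, whose row lay near the dim limit, at 0.13. Of the 7 ubiquitin genes only Uba6 and Uba7, activating enzymes, had rows of their own, and they differed by -0.31 and -0.09.

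Markers of other blood cells differed in both directions between the groups, none past the adjusted threshold. Their part in the results was not tested. Of all tested genes, 19.7% were higher and 15.9% lower with no overlap, which is the background for the counts that follow. Of 11 tested granulocyte and monocyte markers 5 were lower and 1 higher with no overlap, among them S100a8 at -0.86 and S100a9 at -0.83. By sign 7 were lower and 4 higher, with Mpo at 0.48 and Lyz2 at 0.24 in overlapping groups. The log2 of the summed signal of the 11 was 10.49 and 10.95 in Nol3+/+ against 10.42 and 10.51 in Nol3-/- MPN. These groups overlapped, and a sum weighs the brightest rows most. Of 4 tested B cell markers 3 were higher with no overlap, led by Cd79b at 0.50, with a summed signal of 7.55 and 7.53 against 7.76 and 7.81. Cd79a (4.91 to 5.22) and Ebf1 (5.33 to 5.63) were among the 3. Their rows lay near the level of Psmb11 and cannot be separated from background. Of 7 T and NK cell markers 3 were higher and 2 lower with no overlap, led by Nkg7 at 0.86, with a summed signal of 8.79 and 8.63 against 8.99 and 9.03. These counts include Cd8a (5.07 to 5.24), Cd2 (5.20 to 5.50) and Cd4 (5.32 to 5.49). Their rows lay near the level of Psmb11 too and cannot be separated from background. Of the 6 tested antigen-presenting markers, whose cells are rich in immunoproteasome, H2-Aa differed by -0.89 and Itgax by 0.27 with no overlap. The Itgax row (5.39 to 5.74) lay near the level of Psmb11. The summed signal of this list was 9.53 and 9.32 against 9.29 and 9.36, with overlapping groups. The erythroid list gave 9.75 and 9.60 against 9.66 and 9.83, and the megakaryocyte and platelet list 8.42 and 8.18 against 8.06 and 8.36. These sums overlapped between the groups, while 3 of the 6 tested genes of each list did not. In the erythroid list Tfrc was higher (0.66) and Car2 and Rhd lower (-0.42 and -0.35). In the megakaryocyte list Pf4 was higher (0.59) and Itgb3 and Itga2b lower (-0.30 and -0.19). Pf4 (4.68 to 5.52), Itgb3 (4.63 to 5.17) and Itga2b (5.08 to 5.35) also lay near the level of Psmb11. Of the 7 tested genes of the sort list 5 overlapped between the groups, and the median log2 difference was 0.0015. Kit, Flt3 and Cd34 differed by -0.20, 0.06 and 0.0015, and Thy1 and Slamf1 overlapped as well. Cd48, carried by progenitors more than by stem cells, was higher, at 6.42 and 7.76 against 8.99 and 8.01. Procr, carried by stem cells, was lower, at 8.15 and 8.11 against 7.85 and 7.87.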

How the data were processed

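Whole-transcript Affymetrix arrays were hybridised with amplified, biotin-labelled RNA of 4 samples. The submitters' processing notes name 2 programs, Transcriptome Analysis Console and Affymetrix Expression Console. Versions, background correction and normalization: not given in the sources used here. A table of log2 signals with 41345 rows was deposited, a scale read from the values (2.84 to 13.53), with the base not stated. Rows were named through the platform annotation: 23521 had 1 symbol, 1814 several and 16010 none. The row with the highest mean over the 4 arrays stood for a gene. Genes under the 25th percentile of means were left out, which kept 16635.

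The comparison used limma (version 3.58.1, under R version 4.3.3; linear fit, then eBayes with its variance trend; 2 residual and 3.19 prior degrees of freedom), with p adjusted by Benjamini-Hochberg over all genes tested and a threshold of 0.05. Intervals are 95%. The procedure was run on simulated data with known differences, to check that their median size was recovered. How many of them passed the adjusted threshold is not given here. The run is thus no measure of what so few arrays can detect. Members, lists and alternatives were chosen with earlier results of these data known. Members named with values were the catalytic, tissue-restricted and X-linked ones and the 3 with the smallest p among alpha ring, beta ring (immunoproteasome included), ATPase, base and lid non-ATPase, and assembly genes (22 in all), with shorter values for the other members; from each further list the 3 with the smallest p, and further examples chosen after their values were seen. The 7 promoter elements and the sequences shown were chosen after values were seen. The labels give no batch. The number of arrays limits the precision. Alternatives were a replicate block, each array left out, variance models, array weights, normalizations, dim limits, row means, and leaving out X and Y genes. Replicate numbers pair no samples by the labels.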

Additional observations from a re-analysis of the deposited data

How the results depend on the processing

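With the replicate number as a block, 6 members had an unadjusted p under 0.05 (6 higher) and 0 genes passed the adjusted threshold over all genes (630 genes were higher at an unadjusted limma p under 0.05). The numbers share no stated animal, and deviations from group means of same-numbered arrays correlated at r = 0.05 over genes. With X and Y genes left out, 0 genes passed (limma; 574 higher at an unadjusted p under 0.05) and 9 members stayed at an unadjusted p under 0.05. Leaving out each array in turn gave 0 to 39 genes past the adjusted threshold, 3 to 8 members at an unadjusted p under 0.05, and medians of 0.10 to 0.24 for all members, 0.15 to 0.28 for core, 0.083 to 0.30 for regulatory and 0.27 to 0.50 for immunoproteasome genes. After quantile normalization the core median was 0.076 and the regulatory median 0.14. In that setting 6 members were higher at an unadjusted limma p under 0.05 (3.23% of all tested genes), and 14 members were higher and 6 lower with no overlap. The shares of all tested genes with no overlap were not taken in that setting. In the main setting they were 19.7% higher and 15.9% lower. The cause of the shift was not tested. Other settings (variance models, array weights, centring, dim limits, row means) gave 7 to 9 members at an unadjusted p under 0.05, against 3.24% to 3.96% of all genes. Of 553 values of the 37 tested members under the alternatives, 528 kept direction and side of the adjusted threshold and 25, in 15 members, turned sign. After quantile normalization these were Psma1 (-0.048), Psmb3 (-0.027) and Psmd6 (-0.082). With each array left out, the values of the 15 ran from -0.0061 to 0.13 for Psma1, -0.14 to 0.46 for Psma6, -0.054 to 0.081 for Psmb3, -0.25 to 0.086 for Psmb4, -0.204 to 0.0012 for Psmb7, -0.022 to 0.087 for Psmb11, -0.17 to 0.77 for Psmc1, -0.081 to 0.60 for Psmc2, -0.10 to 0.37 for Psmd3, -0.17 to 0.26 for Psmd6, -0.26 to 0.16 for Psmd9, -0.30 to 1.20 for Psmd10, -0.18 to 0.15 for Psmd11, -0.15 to 0.52 for Psmd12 and -0.17 to 0.31 for Psmd13. Signal over background is unknown for dim rows.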
